A study of Sus scrofa with 15 samples.

Results

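Genes that are not known as NK cell genes, namely *KIF7*, *EXOC3L2*, *EMP1*, *LY6D* and *DENND1B*, were followed across 3 populations of pig NK cells. These 5 of 29886 counted genes were chosen by their measured counts, because reads on them were plentiful in CD8αhigh NK cells of blood and liver and far fewer in CD8αdim NK cells of liver. The choice had no numeric threshold, so there is no gene just inside or just outside it, and it used the CD8αdim values themselves. Differences between CD8αdim and CD8αhigh cells are therefore given for the 5 genes as a description without a test. The libraries came from 5 pigs, 6 months old, and each pig gave all 3 populations: CD8αhigh NK cells of blood, CD8αhigh NK cells of liver (conventional liver NK cells) and CD8αdim NK cells of liver (liver-resident NK cells). Blood cells were sorted from mononuclear cells, liver cells came from fluid flushed through the portal vein, and all were sorted as CD3−CD172a− cells with high or dim CD8α. The design sets liver-resident NK cells against both conventional populations.

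NK cells are lymphocytes that kill infected or transformed cells without prior sensitisation. The liver holds NK cells that resemble those of blood beside a resident population, and in pigs the level of CD8α on the surface separates them. None of the 5 genes encodes a receptor, granule protein or transcription factor by which NK cells are usually recognised. Their products belong to unrelated systems: *KIF7* encodes a kinesin of the primary cilium that regulates hedgehog signalling, *EXOC3L2* a relative of a subunit of the exocyst, the complex that tethers secretory vesicles to the plasma membrane, and *DENND1B* a DENN-domain protein that activates Rab35 on endosomes. *EMP1* encodes a membrane protein with 4 transmembrane segments of the PMP22 family, known mainly from epithelia, and *LY6D* a small surface protein of the LY6/uPAR family held in the membrane by a lipid anchor.

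RNA was counted from the 3′ end of transcripts, so that counts do not grow with transcript length and levels of different genes can be set side by side. Totals were 2874092 to 3823973 counts in blood libraries, 2886686 to 5680221 in liver CD8αhigh libraries and 2003499 to 3776823 in CD8αdim libraries. Levels are given as CPM, edgeR counts scaled to a common TMM-adjusted library total, and as mean ± SD over 5 pigs. All 12 NK cell markers checked were counted in each population. Against blood, edgeR called *NCR1*, *KLRB1*, *NKG7* and *EOMES* higher (the transcription factor *EOMES* from 39.5 to 677 CPM) and *FCGR3A*, *TBX21* and *CD8A* lower in CD8αdim cells, and mean *CD8A* levels were 466 CPM in blood, 490 CPM in liver CD8αhigh and 43.4 CPM in CD8αdim cells. In bulk RNA, fewer cells that express a gene and less RNA of that gene per cell cannot be told apart. Markers of other cells also differed between populations: 6 B cell genes summed to 51.9 to 128 CPM in blood, 17.9 to 59.7 CPM in liver CD8αhigh and 258 to 707 CPM in CD8αdim libraries, with *MS4A1* (CD20) at 267 ± 134 CPM in the last and *CD79A* listed at 0 throughout. Summed levels of 6 T cell genes were 637 to 1203, 714 to 1076 and 110 to 593 CPM, nearly all of it *CD3G*, with *CD4* and *CD5* at 0 in every library of these CD3− sorted cells. *CD3G* itself was highest in CD8αhigh cells, at 865 ± 206 CPM in blood and 825 ± 151 CPM in liver against 289 ± 201 CPM in CD8αdim cells. Erythroid and platelet genes summed to 1.19 to 57.0 CPM in liver CD8αhigh and 0 to 23.3 CPM in CD8αdim libraries, and in blood to 317 CPM in pig 4, nearly all of it the haemoglobin gene *HBB*, and at most 10.6 CPM in the other pigs. Sums over 7 myeloid genes stayed at or below 27.0 CPM, over 9 liver parenchyma and endothelium genes at or below 18.5 CPM, and the epithelial list summed to 0.542 to 14.1 CPM in blood, 8.27 to 13.7 CPM in liver CD8αhigh and 11.7 to 78.4 CPM in CD8αdim libraries. Its gene *CDH1* (E-cadherin) was called higher in CD8αdim cells, at 38.5 ± 25.2 CPM against 7.89 ± 5.24 CPM in blood (edgeR adjusted p = 0.00406) and 10.4 ± 1.98 CPM in liver CD8αhigh cells (edgeR adjusted p = 0.0166), while *KRT8*, *KRT18*, *KRT19* and *KRT5* were at 0 throughout. The part of these other cells in the levels described next was not tested.

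All 5 genes were abundant in CD8αhigh cells. By mean level over the 10 CD8αhigh libraries, *EMP1* lay above 97.8% of the 10939 genes tested, *LY6D* above 95.1%, *KIF7* above 94.1%, *DENND1B* above 90.9% and *EXOC3L2* above 71.3%. All 5 passed the filter on low counts, which a gene could pass through its CD8αhigh libraries alone. Over all genes tested, 1050 (9.6%) were called lower in CD8αdim than in blood cells and 840 (7.68%) lower than in liver CD8αhigh cells (edgeR's quasi-likelihood test, adjusted p under 0.05). No call is given for the 5 genes, whose CD8αdim values chose them. In all 5 the CD8αdim libraries lay below all 10 CD8αhigh libraries, as they did in 532 of the 10939 genes (4.86%), and nothing is read from this because the choice fixed it. For the size of the difference, 209 of 10939 genes (1.91%) had a log2 fold change below -3 in both comparisons, the 5 genes included. Below -4 there were 131 genes by the fitted values, and *KIF7*, *EXOC3L2*, *EMP1* and *LY6D* were among them. Both comparisons share the CD8αdim libraries.

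**Figure D1:**
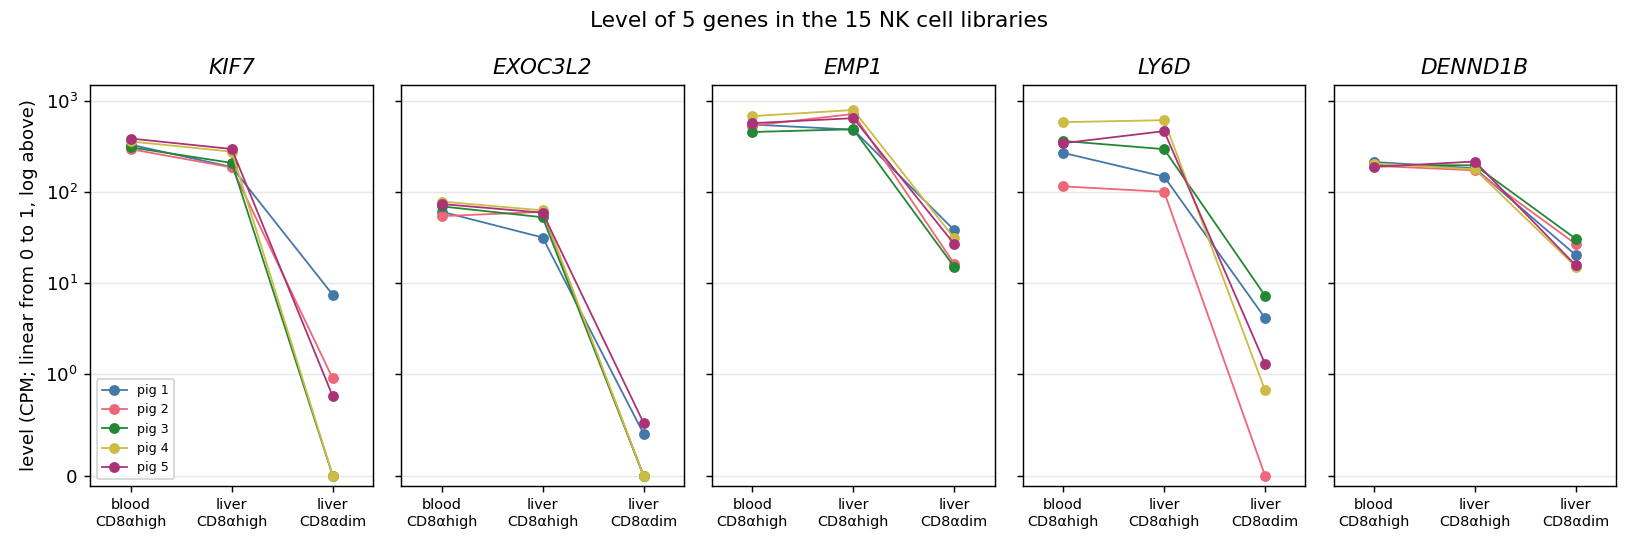
Level of each gene (CPM, linear from 0 to 1 and logarithmic above) in blood CD8αhigh, liver CD8αhigh and liver CD8αdim NK cells, with a point for each library and a line joining the 3 libraries of a pig. In each panel the 5 CD8αdim points lie below all 10 CD8αhigh points, as in 4.86% of the genes tested, from *EXOC3L2* at 0 to 0.522 CPM up to *DENND1B* at 15.2 to 30.7 CPM and *EMP1* at 15.1 to 38.2 CPM.

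*KIF7*, the ciliary kinesin, lies at chromosome 7, 55200591 to 55220237 of Sscrofa11.1 and has 3 annotated transcripts. In blood its levels in pigs 1 to 5 were 331, 296, 310, 360 and 387 CPM (995 to 1222 counts; mean 337 ± 36.9 CPM). In liver CD8αhigh cells the same pigs gave 189, 186, 209, 278 and 297 CPM (mean 232 ± 52.1 CPM), and pigs 4 and 5 were the highest in both populations. In CD8αdim cells 18, 2, 0, 0 and 3 reads were counted, or 7.48, 0.960, 0, 0 and 0.784 CPM. Most reads of *KIF7* in CD8αdim cells thus came from pig 1, and no CD8αdim library came near the lowest CD8αhigh library. The log2 fold change of CD8αdim cells was -7.60 (SE 0.51) against blood and -7.06 (SE 0.50) against liver CD8αhigh cells. Over all 5 pigs the mean was 183-fold lower than in blood and 126-fold lower than in liver CD8αhigh cells. For a bound, pig 1 was left out after its value had been seen. In the other pigs no CD8αdim library held more than 3 counts. Their mean was at least 299-fold lower than in blood and at least 214-fold lower than in liver CD8αhigh cells, by the bound explained for *EXOC3L2*. Pig 1 itself, at 2.26% of its blood level and 3.96% of its liver CD8αhigh level, lay outside these bounds.

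*EXOC3L2*, the exocyst-related gene on chromosome 6, 51638058 to 51661716, had the lowest CD8αhigh level and the fewest CD8αdim reads. Blood libraries held 225, 199, 257, 218 and 217 counts (61.0, 54.5, 69.7, 78.8 and 74.0 CPM; mean 67.6 ± 9.81 CPM). Liver CD8αhigh libraries held 92, 230, 190, 366 and 249 counts (31.8, 60.6, 53.0, 63.1 and 59.5 CPM; mean 53.6 ± 12.8 CPM), with pig 1 apart at the low end. The CD8αdim libraries held 1, 0, 0, 0 and 2 counts. Since 3 counts or fewer in every library of a population are taken as not detected, only a bound can be given, set against 3 counts in each CD8αdim library: *EXOC3L2* was at least 58.6-fold lower than in blood and at least 46.4-fold lower than in liver CD8αhigh cells. Such limits cover counting error only, not the spread between pigs.

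*EMP1*, at chromosome 5, 59245317 to 59267466, was the most abundant of the 5 genes and was still detected in all CD8αdim libraries. Its blood levels were 552, 537, 457, 683 and 571 CPM (mean 560 ± 81.2 CPM). Liver CD8αhigh levels were 484, 721, 490, 796 and 648 CPM (mean 628 ± 139 CPM), so that both CD8αhigh populations overlapped. CD8αdim levels were 38.2, 16.3, 15.1, 31.2 and 26.9 CPM from 92, 34, 31, 111 and 103 counts (mean 25.5 ± 9.85 CPM). Every CD8αdim library was thus far above the level of 3 counts and far below the lowest CD8αhigh library, 457 CPM. The log2 fold change was -4.44 (SE 0.25) against blood and -4.60 (SE 0.25) against liver CD8αhigh cells.

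*LY6D* is a short gene with 1 annotated transcript at chromosome 4, 1444029 to 1445714. Blood levels in pigs 1 to 5 were 270, 116, 364, 585 and 344 CPM (mean 336 ± 170 CPM). Liver CD8αhigh levels were 148, 101, 296, 616 and 467 CPM (mean 325 ± 216 CPM). Pig 2 was lowest and pig 4 highest in both populations. CD8αdim libraries held 10, 0, 15, 3 and 5 reads (4.15, 0, 7.31, 0.843 and 1.31 CPM; mean 2.72 ± 3.00 CPM), all far below pig 2's CD8αhigh levels. Pig 4, highest in CD8αhigh cells, was not among the higher CD8αdim libraries. The log2 fold change of CD8αdim cells was -7.07 (SE 0.67) against blood and -7.02 (SE 0.66) against liver CD8αhigh cells. Leaving out pig 3 gave -7.71 and -7.74, and leaving out pig 4 gave -6.49 and -6.38.

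*DENND1B*, the Rab35 activator at chromosome 10, 20391507 to 20635808, varied least between pigs of the 5 in CD8αhigh cells and kept the largest part of its level in CD8αdim cells. Blood levels were 214, 194, 199, 206 and 189 CPM (mean 200 ± 9.84 CPM), a coefficient of variation of 4.91% where counting alone would give 3.86%. Liver CD8αhigh levels were 183, 174, 197, 178 and 217 CPM (mean 190 ± 17.5 CPM), a coefficient of variation of 9.25% against 3.61% from counting. CD8αdim libraries held 49, 56, 63, 54 and 60 counts (20.4, 26.9, 30.7, 15.2 and 15.7 CPM; mean 21.8 ± 6.86 CPM). The gene was low but plainly counted in all 5 pigs, with log2 fold changes of -3.22 (SE 0.20) against blood and -3.14 (SE 0.20) against liver CD8αhigh cells.

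The choice asked for high counts in both CD8αhigh populations but did not use the difference between them, which could be tested. A gene low in either would not have been picked, so that a lack of large differences here is partly fixed by the choice. None of the 5 was called (edgeR quasi-likelihood fit, Benjamini-Hochberg adjusted p = 0.9996 for each, n = 5 pigs), where 7 of 10939 genes (0.064%) were called in the whole table. *KIF7* had the largest difference, a log2 fold change of -0.54 (SE 0.34, 95% interval -1.20 to 0.12, unadjusted p = 0.125 in the edgeR fit). Its level was lower in liver than in blood in 5 of 5 pigs, with ratios of liver to blood from 0.569 in pig 1 to 0.773 in pig 4. With 5 pigs moving the same way, the smallest p of a two-sided exact sign-flip test is 0.0625. *EXOC3L2* had a log2 fold change of -0.33 (SE 0.25, 95% interval -0.83 to 0.17) and was lower in 4 of 5 pigs, from a ratio of 0.521 in pig 1 to 1.11 in pig 2. *EMP1* went the other way in 4 of 5 pigs, with 0.17 (SE 0.21, 95% interval -0.24 to 0.57). *DENND1B* differed little, by -0.08 (SE 0.17, 95% interval -0.42 to 0.26), and its interval is the narrowest of the 5. *LY6D* had -0.04 (SE 0.45, 95% interval -0.93 to 0.85), which became 0.09 without pig 1 and 0.02 without pig 3, so no direction can be given for it. The intervals come from the fit of all 15 libraries, which did not use the pairing by pig and took its spread from CD8αdim libraries too. They run from 0.437 to 1.09 times the blood level for *KIF7* and from 0.524 to 1.80 times for *LY6D*. Within pigs the ratios of *KIF7*, 0.569 to 0.773, spread less than its interval, and no interval was computed from the pairs.

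**Figure D2:**
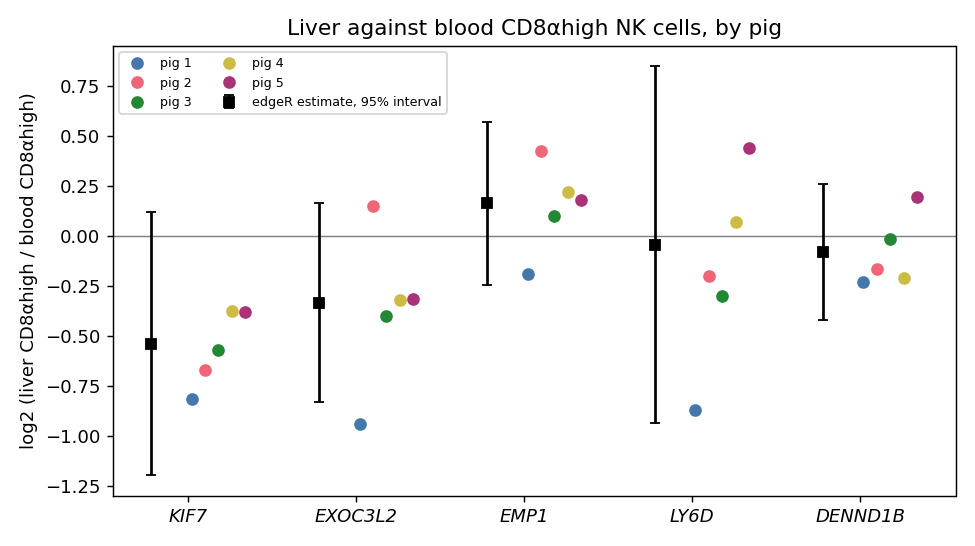
Log2 ratio of liver CD8αhigh to blood CD8αhigh NK cells for each gene, with the edgeR estimate and its 95% interval as a black square and bar and the ratio within each of the 5 pigs as a coloured point. All 5 points of *KIF7* lie below 0. The 95% intervals, from the fit that did not use the pairing by pig, include 0 for all 5 genes.

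Of the 5 genes, *LY6D* differed most between pigs. The highest pig was 5.06-fold above the lowest in blood and 6.11-fold in liver CD8αhigh cells, and it was pig 4 over pig 2 both times. The other 4 genes ranged 1.13-fold to 1.49-fold between pigs in blood and 1.25-fold to 1.99-fold in liver. After these levels had been seen, a difference among pigs was tested over the 10 CD8αhigh libraries with population and pig as terms in edgeR, each pig being represented by a blood and a liver library. It was called for 241 of 10296 genes (2.34%), and *LY6D* ranked 12th by p (adjusted p = 4.98e-06, edgeR's quasi-likelihood test). The call held without each pig in turn, with adjusted p from 1.87e-07 to 0.00648, the last without pig 2. It was not made for *EMP1* (edgeR adjusted p = 0.157), *KIF7* (0.261), *EXOC3L2* (0.654) or *DENND1B* (0.984), although *EMP1* passed without a filter on low counts (0.0487) and with DESeq2's likelihood-ratio test (0.0154). The 241 genes called in the whole table became 135 to 232 without single pigs, the fewest without pig 2. They became 642 of 16767 without a filter on low counts and 443 with DESeq2's likelihood-ratio test. Sequence variants between pigs in the counted stretch of *LY6D* were not analysed here.

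**Figure D3:**
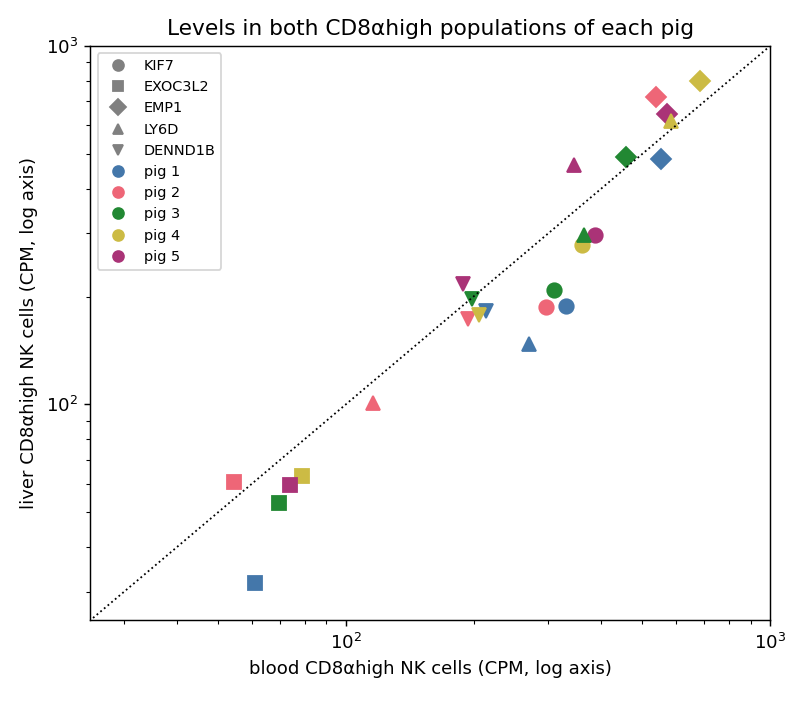
Level in liver CD8αhigh against blood CD8αhigh NK cells (CPM, both axes logarithmic), with a marker shape for each gene, a colour for each pig and a dotted line where both are equal. *LY6D* stretches along the line from 116 and 101 CPM in pig 2 to 585 and 616 CPM in pig 4. The 5 points of *DENND1B* lie together, at 189 to 214 CPM in blood and 174 to 217 CPM in liver.

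Within CD8αhigh cells some of the 5 genes varied together more than others. Over the 10 CD8αhigh libraries, which come in pairs from the same pig, Pearson's r of log2 CPM between pairs of the 5 genes was highest for *KIF7* and *EXOC3L2* (0.72), followed by *KIF7* with *LY6D* (0.59) and *DENND1B* (0.56) and *EXOC3L2* with *LY6D* (0.54). The other pairs ran from 0.08 to 0.41, except *EMP1* and *DENND1B* at -0.25. Over all 15 libraries the same r ran from 0.94 to 0.99, values that the drop in CD8αdim cells, by which the genes were chosen, sets almost alone.

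The level left in CD8αdim cells, as a percentage of the liver CD8αhigh level of the same pig, differed among the 5 genes, in part with overlapping ranges. The paper reports less than full purity for the sorted cells, lowest for CD8αdim cells. The part of any CD8αhigh cells among them in these levels was not tested. *DENND1B* kept a median of 11.14% (range over pigs 7.23% to 15.6%) and *EMP1* 3.92% (2.26% to 7.89%). *LY6D* kept 0.280% (0% to 2.81%), *KIF7* 0.263% (0% to 3.96%) and *EXOC3L2*, not detected by the limit of 3 counts, 0% (0% to 1.31%). The ranges of *DENND1B* and *EMP1* met between 7.23% and 7.89%, and those of the last 3 genes overlapped. Pig 1 had the highest percentage for *KIF7* and *EMP1*, also as a percentage of blood (2.26% and 6.93%), whereas for *DENND1B* pigs 2 and 3 were highest. For *EXOC3L2* and *LY6D* the highest pig depended on the reference: pig 1 relative to liver CD8αhigh cells (1.31% from 1 read, and 2.81%), but pig 5 (0.706%) and pig 3 (2.00%) relative to blood. Genes known from circulating, mature NK cells lay in the same span: *CX3CR1*, a chemokine receptor, kept a median of 0.304%, *GNLY*, a granule protein, 1.56%, *KLRG1*, an inhibitory receptor, 2.15%, *S1PR5*, a receptor that directs exit from tissue, 3.10%, and *ZEB2*, a transcription factor of late NK cell maturation, 8.43%. These genes too were taken with their values known.

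**Figure D4:**
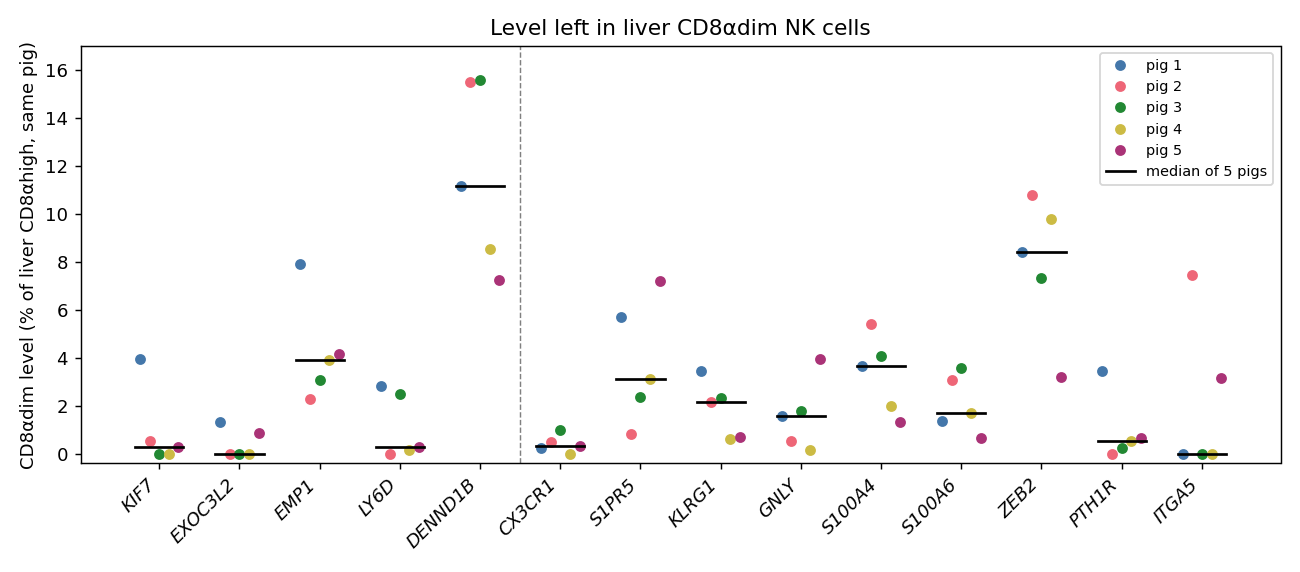
CD8αdim level as a percentage of the liver CD8αhigh level of the same pig for the 5 genes, left of the dashed line, and for 9 reference genes low in CD8αdim cells, with a coloured point for each pig and a black line at the median. *DENND1B* lies highest with a median of 11.14%, followed among the 5 by *EMP1* with 3.92%, and the medians of *KIF7*, *EXOC3L2* and *LY6D* lie at or below 0.280%.

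Relatives and partners of the 5 genes were read from the same fit. Lists of the hedgehog pathway, kinesins, exocyst, PMP22/EMP, LY6/uPAR and DENN families and DENND1B partners are described by their counts, with the 5 genes left out, beside a background of 18.2% of genes called against blood (8.62% higher) and 14.6% against liver CD8αhigh cells (6.96% higher). Of 78 list genes tested, 7 (8.97%) were called lower and 10 (12.8%) higher against blood, and 5 (6.41%) lower and 4 (5.13%) higher against liver CD8αhigh cells. Between liver and blood CD8αhigh cells edgeR called 0 of the 78, where 0.064% of all genes were called. Median log2 fold changes over all genes were 0.01 for CD8αdim against blood and 0.02 against liver CD8αhigh cells.

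Around *KIF7*, 14 of 27 hedgehog pathway genes had enough reads to test, and 8, *SHH*, *SMO* and *GLI2* among them, had 0 counts in all libraries. The transcription factor *GLI1*, the receptor *PTCH1* and the inhibitor *SUFU*, which hold the core of the pathway beside KIF7, were counted at low levels and not called in any comparison, with log2 fold changes of -0.32, -1.14 and -0.33 for CD8αdim against blood cells. The list median was -0.12 against blood and -0.09 against liver CD8αhigh cells. *GPR161*, a ciliary receptor that restrains the pathway, went opposite to *KIF7*: it was at 0.945 ± 1.77 CPM in blood, 3.49 ± 4.53 CPM in liver CD8αhigh and 72.8 ± 23.3 CPM in CD8αdim cells. It had 141 to 279 counts in CD8αdim libraries and at most 28 in any other, and rose by log2 fold changes of 6.33 (SE 1.00, edgeR adjusted p = 9.15e-05) and 4.48 (SE 0.86, edgeR adjusted p = 0.000815). Without pig 5, which held 12 of its 14 blood reads, it was not detected in blood and at least 82.4-fold higher in CD8αdim cells, and without pig 1 the second log2 fold change became 5.14. *PRKACB*, a catalytic subunit of protein kinase A, was called lower against blood only, by -0.46 (edgeR adjusted p = 0.0280), a call that was lost without pig 1, 2, 3 or 5 (edgeR adjusted p up to 0.160).

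Among 23 of 37 kinesin symbols tested, which include the kinesin-binding protein *KIF1BP*, 1 was called lower and 3 higher against blood, and 2 lower against liver CD8αhigh cells. *KIF26A*, an atypical kinesin, shared the fall of *KIF7*, from 69.3 ± 14.4 CPM in blood and 56.0 ± 13.0 CPM in liver CD8αhigh to 1.82 ± 1.90 CPM in CD8αdim cells (log2 fold changes -5.31, SE 0.50, and -5.00, SE 0.50, edgeR adjusted p = 1.41e-07 and 3.60e-07). Its CD8αdim libraries held 0 to 10 counts and no CD8αhigh library fewer than 115. Leaving out single pigs gave -5.95 to -4.87 and -5.66 to -4.54. The cargo motor *KIF3B* rose from 51.1 to 103 CPM against blood (log2 fold change 1.01, edgeR adjusted p = 0.00234). *KIF11*, a spindle motor, was called higher against blood, from 1.65 to 8.74 CPM, with 7.67 CPM in liver CD8αhigh cells and no call between the liver populations (edgeR adjusted p = 0.914), as was *KIF26B*, which was not detected in blood and at least 7.86-fold higher on average in CD8αdim cells. Its CD8αdim counts were 23, 6, 41, 1 and 12, so that pig 4 was as low as blood, and without pig 3 the bound fell to 4.23-fold. Both calls were lost when some single pigs were left out (pigs 3 and 4 for *KIF11*, pigs 1, 2 and 5 for *KIF26B*, edgeR adjusted p up to 0.143 and 0.0885) and with the pig as a block (0.0558 and 0.0789). *KIF5B*, the conventional kinesin heavy chain, fell by 0.42 on the log2 scale against liver CD8αhigh cells (edgeR adjusted p = 0.0483), a call lost whichever pig was left out (edgeR adjusted p up to 0.184) and with the block (0.0585). The median of the kinesins was 0.43 against blood and 0.18 against liver CD8αhigh cells.

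Core exocyst genes were still counted in CD8αdim cells, where *EXOC3L2* was not detected. Of 12 genes tested, 2 were called lower and 1 higher against blood and 1 lower against liver CD8αhigh cells, with medians of -0.15 and -0.11. *EXOC2*, a core subunit, fell from 291 ± 42.1 CPM in blood and 265 ± 18.1 CPM in liver CD8αhigh to 174 ± 28.5 CPM (log2 fold changes -0.74 and -0.61, edgeR adjusted p = 0.00111 and 0.00689). *EXOC8*, another core subunit, rose against blood by 0.68 (edgeR adjusted p = 0.00796). *TNFAIP2*, like *EXOC3L2* a relative of EXOC3, was called lower against blood at -2.79 (edgeR adjusted p = 0.0281), from 9.12 ± 4.73 to 1.26 ± 1.44 CPM, a call that was lost without pig 2, 3 or 4 (edgeR adjusted p up to 0.109).

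In the PMP22/EMP family 3 of 7 relatives of *EMP1* could be tested, and *EMP2* and *PMP22* had too few reads. *EMP3*, its closest counted relative in name, fell as well: from 186 ± 34.0 CPM in blood and 173 ± 14.0 CPM in liver CD8αhigh to 27.0 ± 14.0 CPM in CD8αdim cells (log2 fold changes -2.78, SE 0.27, and -2.68, SE 0.27, edgeR adjusted p = 1.61e-07 and 3.18e-07). The lowest CD8αhigh library of *EMP3* was at 142 CPM and the highest CD8αdim library at 43.2 CPM. *PERP*, a p53 target of cell junctions, was found the other way round, with 16 to 47 counts in CD8αdim libraries and 0 in every liver CD8αhigh library, which makes it at least 16.6-fold higher there (edgeR adjusted p = 0.000323). Against blood its call (log2 fold change 2.92, edgeR adjusted p = 0.0358) was lost without pig 1, 2, 4 or 5 (edgeR adjusted p up to 0.0957). *CLDND1* was not called, at -0.05 against blood and -0.62 against liver CD8αhigh cells.

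In the LY6/uPAR family few relatives of *LY6D* were counted. Of 20 relatives, 12 had 0 counts in all libraries and 2 could be tested. *LY6E*, at 32.6 CPM in blood, 32.2 CPM in liver CD8αhigh and 16.9 CPM in CD8αdim cells, had log2 fold changes of -0.92 and -0.91 (edgeR adjusted p = 0.109 and 0.134). *CD59*, an inhibitor of complement, had -1.06 and -0.72 (edgeR adjusted p = 0.663 and 0.816), with 0 to 409 counts per library. Neither was called. *CD59* also differed among pigs in CD8αhigh cells (edgeR adjusted p = 4.55e-05), with pig 5 at 115 CPM in blood and 97.7 CPM in liver and the other pigs at 22.8 CPM or less, but not in the order of *LY6D*. That call was lost without pig 5 (edgeR adjusted p = 0.369) and with DESeq2's likelihood-ratio test (adjusted p = 0.636).

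Among DENN-domain proteins, 17 of 19 relatives of *DENND1B* were tested, with medians of -0.30 against blood and -0.26 against liver CD8αhigh cells. *DENND3*, an activator of Rab12, fell from 278 ± 31.0 CPM in blood and 250 ± 17.7 CPM in liver CD8αhigh to 78.2 ± 40.3 CPM (log2 fold changes -1.84 and -1.69, edgeR adjusted p = 1.63e-05 and 5.59e-05). *DENND1A*, the nearest relative in name, was called lower against blood by -1.18 (edgeR adjusted p = 0.00767) but not against liver CD8αhigh cells, where it had -0.72 (edgeR adjusted p = 0.122). *DENND2D*, another DENN-domain protein, rose from 5.54 ± 2.90 and 12.2 ± 10.6 CPM to 142 ± 15.5 CPM (log2 fold changes 4.65 and 3.57, edgeR adjusted p = 4.47e-07 and 8.22e-06). *DENND5B* was called higher in both comparisons (log2 fold changes 3.57 and 5.20, edgeR adjusted p = 0.0324 and 0.00720), but its 4, 40, 86, 45 and 25 CD8αdim counts overlapped those of blood, 0 to 12. Without pig 1, which held all 7 of its liver CD8αhigh reads, it was at least 28.1-fold higher than in liver CD8αhigh cells, and the call against blood was lost without pig 2, 4 or 5 (edgeR adjusted p up to 0.0919). Of 8 DENND1B partners tested, *CLTA* (clathrin light chain; 0.68, edgeR adjusted p = 0.00379) and *AP2B1* (an adaptor subunit; 0.78, edgeR adjusted p = 0.0290) were called higher against blood, and none against liver CD8αhigh cells. The *AP2B1* call was lost without pig 1, 2 or 4 (edgeR adjusted p up to 0.192). *RAB35*, the GTPase that DENND1B activates, was at 173 ± 17.4, 189 ± 26.3 and 204 ± 75.9 CPM and was not called. The partners had medians of 0.48 and 0.29.

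**Figure D5:**
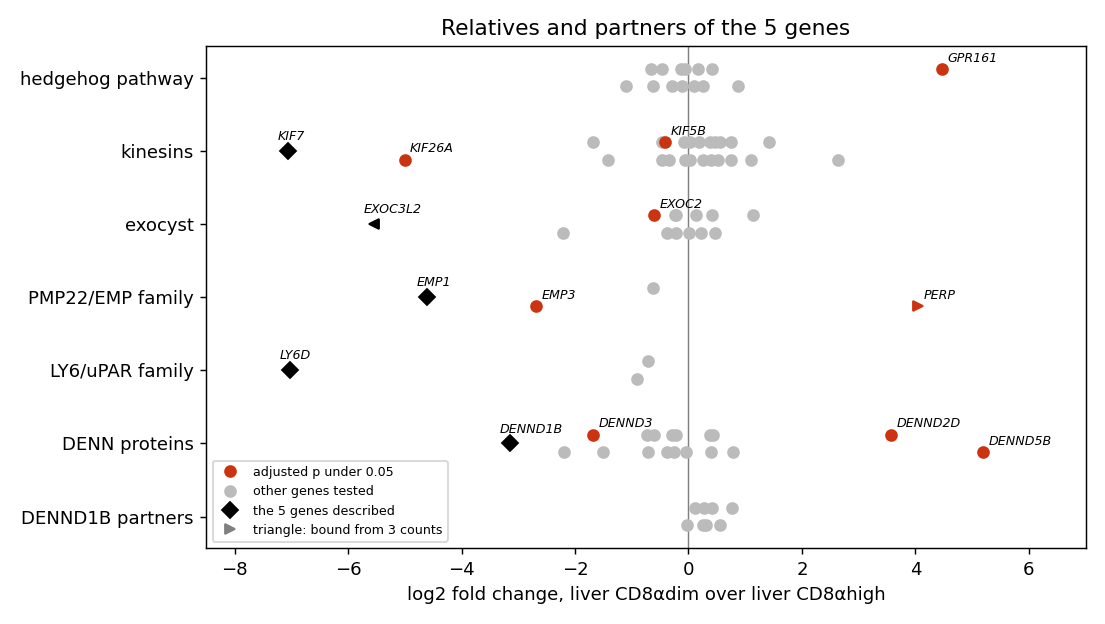
Log2 fold change of liver CD8αdim over liver CD8αhigh NK cells for the tested genes of 7 lists, with called genes in red, other genes in grey and the 5 genes described as black symbols; triangles are bounds set from 3 counts. *KIF26A*, *EMP3* and *DENND3* lie below 0 on the side of the 5 genes, and *GPR161*, *DENND2D*, *DENND5B* and *PERP* lie above 0.

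Genes next to the 5 on the chromosome, up to 3 on each side within 100 kb, mostly had few reads or none. Beside *KIF7*, *TICRR* lies 332 bases away and had 0 to 12 counts per library, and beside *EMP1* the long noncoding RNA gene *LOC110260735*, 2348 bases away, had 0 to 4. *MARK4*, a kinase gene 4207 bases from *EXOC3L2*, was tested and not called (log2 fold change -0.96 against blood, edgeR adjusted p = 0.455). Only *DENND1B* has an annotated gene that overlaps it, *LOC102165783*, with 17 reads in all libraries together. Strand and counting rule are not given in the sources used here, so reads shared by overlapping genes cannot be told apart.

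The exception was *LOC110260197*, a protein-coding gene 4398 bases from *LY6D*, at chromosome 4, 1450112 to 1455000. It had 56, 53, 38, 13 and 26 counts in blood, 16, 40, 44, 41 and 17 in liver CD8αhigh and 0, 1, 9, 0 and 3 in CD8αdim libraries. It was thus low everywhere and lowest in CD8αdim cells, with log2 fold changes of -3.32 (SE 0.83, edgeR adjusted p = 0.00674) and -2.88 (SE 0.82, edgeR adjusted p = 0.0204). The first call was lost without pig 2 (edgeR adjusted p = 0.0544) and the second without pig 1, 2, 4 or 5 (edgeR adjusted p up to 0.118). Without pig 3, which held 9 of its 13 CD8αdim reads, it was not detected in CD8αdim cells, at least 10.04-fold and 6.31-fold lower. It did not follow *LY6D* between pigs: pig 4, highest for *LY6D* in blood, was lowest for *LOC110260197*, and no difference among pigs was called (edgeR adjusted p = 0.811).

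The genes whose log2 CPM was most like the mean of the 5 over the 15 libraries were *PTGER4* (a prostaglandin E2 receptor, r = 0.993), *PTH1R* (the parathyroid hormone receptor, 0.990), *SVIL* (the actin-binding supervillin, 0.986), *S100A4* (a calcium-binding protein, 0.986) and *SHB* (an adaptor protein, 0.985). *KLRG1*, *SRGAP3*, *HNF4A*, *PTPN1* and *MYO1E* followed with r from 0.982 to 0.985. These r are mostly the gap between CD8αdim and CD8αhigh libraries, since 259 of 10934 genes had r above 0.9, and by Spearman's rank correlation 1 of the 10 genes, *SVIL*, was also among the first 10. *PTH1R* was near *KIF7* in level and residue, with 304 CPM in blood, 225 CPM in liver CD8αhigh and 1.85 CPM in CD8αdim cells. *PTGER4* fell less steeply, from 452 and 432 to 102 CPM. *HNF4A*, a nuclear receptor best known from hepatocytes, was found at 17.1 and 18.7 CPM in blood and liver CD8αhigh cells and was not detected in CD8αdim cells, at least 14.8-fold and 16.2-fold lower.

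Closest genes were also listed for each of the 5 over the 15 libraries, with 174 to 261 genes above an r of 0.9 for each, values again set mainly by the CD8αdim gap, and some genes recurred. *KIF7* was most like *PTGER4* (r = 0.994), *RFX2*, a transcription factor of ciliated cells (0.993), and *PWWP2A* (0.988). *EXOC3L2* was most like *PTGER4*, *HNF4A* and *PTH1R* (0.990 to 0.988), and *EMP1* most like *PTH1R*, *NUMBL* and *SRGAP3* (0.990 to 0.986). *LY6D* had lower values, with *PRKX* (0.978), *UBAC2* (0.977) and *IQGAP2* (0.971). *DENND1B* was most like *S100A4* (0.998), *KLRG1* (0.994) and *S100A6* (0.993). *RFX2* had 32.1 CPM in blood, 24.3 CPM in liver CD8αhigh and 1.03 CPM in CD8αdim cells, and *PRKX*, a protein kinase, had 87.8 CPM in blood and 66.3 CPM in liver CD8αhigh cells.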

How the data were processed

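RNA of FACS-sorted NK cells from 5 pigs was read at the 3′ end of transcripts in 15 libraries of 3 populations. The authors aligned the reads with HISAT2 to Sscrofa11.1 and deposited raw read counts per gene as whole numbers for 29886 genes. The tool used for counting, its handling of strand and of reads that align more than once are not given in the sources used here. Column names gave the population and pig of all 15 columns, and 0 columns matched no sample. Totals of 2003499 to 5680221 counts set the precision of low genes. A population with 3 counts or fewer in every library was taken as not detected. Bounds given without a pig were set after the counts were seen and hold for the mean of the remaining pigs only.

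Counts were fitted in R 4.3.3 with edgeR 4.0.16 (TMM, default filter by population, quasi-likelihood test, Benjamini-Hochberg adjustment over 10939 genes, 15 libraries in a single fit). The 95% intervals are the log2 fold change ± 1.96 SE. Likeness of genes was computed on log2 CPM with a prior count of 2. Libraries were paired by pig from the labels, since blood and liver came from the same animals. Deviations of libraries from their population means correlated at a mean of 0.107 within and -0.0265 between pigs, and a further fit took the pig as a block. Other alternatives were DESeq2 1.42.0, its size factors, other filters, a robust fit, 2 populations only, and leaving out each pig. The test among pigs was added after the data were seen. Fits were tested on simulated data for CD8αdim against blood. Of 200 genes changed there, 106 were called, with 3 false calls, and 0 genes were called where none was changed. A gene that was not called may therefore still differ. Figures were drawn with matplotlib 3.10.9.

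The 5 genes and all gene lists were chosen with earlier results of these data known. Named beside the 5 are their neighbours within 100 kb, the list genes called with the 3 largest log2 fold changes, the 10 genes most like their mean and the 3 most like each, and known genes low in CD8αdim cells. Further list genes (*GLI1*, *PTCH1*, *SUFU*, *CLDND1*, *LY6E*, *CD59*, *RAB35*) are named as uncalled members after their values were seen. Coordinates come from a RefSeq gene table of Sscrofa11.1 without strand, which matched 29862 of the 29886 symbols. Promoter and protein sequences were not analysed here.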

Additional observations from a re-analysis of the deposited data

Results flagged for a closer look

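Of 15 groups of 5 libraries, each a gene in a population, 1 held a library far from the others. *KIF7* in CD8αdim cells was at 7.48 CPM (18 counts) in pig 1, and the nearest library was at 0.960 CPM, a gap of 0.872 of the whole range where 0.71 is the critical value for 5 samples. For normally distributed values chance alone flags about 1 in 20 groups. Counts of a few reads are not distributed in this way, so the rate here is not known. The same pig was also highest in CD8αdim cells for *EMP1*, at 38.2 CPM, but not for *EXOC3L2*, *LY6D* or *DENND1B*, where pigs 5, 3 and 3 were highest.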

How the results depend on the processing

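For the 5 genes the log2 fold changes between CD8αdim and CD8αhigh cells kept their sign under all 12 alternatives. Those between liver and blood CD8αhigh cells stayed uncalled in all 12, and they kept their sign except for *LY6D*, which ran from -0.182 to 0.0866 when single pigs were left out. With the pig as a replicate block *KIF7* was at -0.54 (edgeR adjusted p = 0.958), no call of the 5 genes changed, and 8 genes of the whole table were called between liver and blood instead of 7. Among list genes the block ended the calls of *KIF11*, *KIF26B* and *KIF5B*. The 7 calls became 18 without a filter, 22 with DESeq2, 4 in the robust fit, 16 in a fit of both populations alone and 0 to 8 without single pigs. The 0, without pig 2, came with 360 genes at an unadjusted p under 0.05. The 1601 genes called between CD8αdim and liver CD8αhigh cells became 1051 to 1453 without single pigs, the fewest without pig 5. The cause of these changes was not tested. At 2003499 to 5680221 counts per library, levels of about 1 CPM rest on a few reads, which limits *KIF7*, *EXOC3L2* and *LY6D* in CD8αdim cells.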
